A study of Mus musculus with 24 samples.

Results

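Type I interferon-stimulated genes are the transcripts that a cell makes more of when interferon-α or interferon-β binds its surface. A fixed list of 42 such genes, found by gene symbol in a table of 45237 mouse genes, was followed in natural killer (NK) cells of the spleen. All 42 had enough counts to be tested, among 17097 genes tested in all. The receptor for type I interferon, made of Ifnar1 and Ifnar2, works through the kinases Jak1 and Tyk2, which switch on transcription factors. With Irf9 these form a complex that binds interferon-stimulated response elements in DNA and raises transcription of antiviral proteins, sensors of foreign nucleic acid and brakes on the pathway itself. In NK cells, type I interferon is known as a signal that arms killing and supports survival during infection.

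RNA was sequenced from NK cells of WT mice, female C57BL/6J animals between 7 and 9 weeks old according to the general methods of the study, in 24 libraries that the labels place in 7 groups. The 4 control libraries came from mice that were not treated. RMA is a mouse T cell lymphoma line, and RMA-KR is a clone of it grown out after its B2m gene had been knocked out, which removes surface MHC-I, and after a vector for the NKG2D ligand Rae1-β had been added. Tumor cells were given intravenously, and NK cells were taken at day 2 for RMA early (3 libraries) and RMA-KR early (3), at day 4 for RMA intermediate (3), at day 7 for RMA-KR intermediate (5), at day 9 for RMA late (3) and at day 14 for RMA-KR late (3). At the intermediate and late stages the tumor and the day therefore differ together, and their parts cannot be told apart. RMA-KR is 1 clone, so traits of the clone and of the changes made to it cannot be told apart either.

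The NK cells had been sorted as viable cells positive for NKp46 and NK1.1 and negative for CD3, CD5 and the T cell receptors. All 8 NK cell markers listed were tested, with Gzma the most abundant, and the defining transcripts Ncr1 and Klrb1c were at 1625 and 1304 CPM or more in every library. In RMA intermediate, Ncr1, Klrb1c, Klrk1 and Eomes were below all controls (log2 fold changes −0.27, −0.49, −0.49 and −0.67), Prf1 was above all controls (0.57), and Gzma, Klrd1 and Il2rb overlapped them (0.22, −0.49 and 0.09). None of the 8 was called in any of the 11 comparisons by edgeR, although Klrb1c, Klrk1, Eomes, Prf1 and Klrd1 had an unadjusted p under 0.05 in RMA intermediate, and the part of this in the results was not tested. Outside Lck, which NK cells also express, the sum of the T cell markers was at most 65.5 normalized CPM in any library. The sequencing depth, as counts summed over genes, was lowest in control 1 (5138651), highest in RMA-KR late 2 (14863500) and 10489204 at the median. CPM is a gene's count divided by the total of its library after edgeR's TMM scaling, brought to a common library size. A gene was taken to have risen or fallen when edgeR gave an adjusted p under 0.05, over all genes tested, and a fold change above 2. The 6 comparisons with control share the same 4 control libraries, so their values are given side by side.

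The listed genes lie on 15 chromosomes, and 17 of them sit in 7 runs of neighbours less than 200000 bases apart on the mm10 assembly. Ifit2, Ifit3 and Ifit1 lie side by side on chromosome 19 from 34550694 to 34650009. Oas2, Oas3 and Oas1a share a stretch of chromosome 5 from 120730333 to 120907521, with Oasl2 and Oasl1 as a separate pair on the same chromosome. Rsad2 and Cmpk2 are neighbours on opposite strands of chromosome 12, and Parp14, Dtx3l and Parp9 are neighbours on chromosome 16. Exons shared with another gene can cost counts, since reads falling on a pair of genes are not counted in union mode. In the annotation 6 of the listed genes share exon bases with another gene on the same strand and 9 on the opposite strand, up to 16.8% of exon bases for Adar and Ifi35, and whether the strand was used in counting was not stated.

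Promoters were read from a RefSeq table on GRCm38.p6 that gives 250 bases before to 50 after each start, and 31 of the 42 genes were in it. Both strands were searched for GAAANNGAAA, the core letters of an interferon-stimulated response element, with overlapping matches counted apart. The letters occurred in 1131 of all 32851 promoters (3.44%) and in 15 of the 39 promoters of the listed genes (38.5%). By gene, 14 of 31 listed genes had a match (45.2%), against 3.99% of the 27025 genes in the table. Those 14 were Ifi203, Ifih1, Ddx58, Isg15, Oas3, Oas1a, Trim30a, Ifitm3, Bst2, Stat2, Rsad2, Eif2ak2, Ifit3 and Ifit1, and 6 of them held at least 2 matches in a single promoter. A match describes letters only. No search was made for the 11 genes Mx2, Parp9, Oas2, Zbp1, Ifi27l2a, Usp18, Dhx58, Rtp4, Parp14, Mx1 and Ifi204.

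The promoters printed here belong to the genes that the later results turn on, Isg15 and Rsad2, which the study itself followed in spleen cells, and those that rose at the late stage and hold a match. Each is written in the direction of its gene, with the matched letters in capitals (TTTCNNTTTC where the match is on the other strand). Isg15 (chr4:156200769-156201068, minus strand) held 3 overlapping matches, starting between −78 and −66 relative to the start of the gene. Rsad2 (chr12:26456403-26456702, minus strand) held 1 at −120, and Ifit3 (chr19:34583279-34583578, plus strand) held 2, at −156 and −122. Oas1a (chr5:120907476-120907775, minus strand) held an overlapping pair at −20 and −14, and Bst2 (chr8:71537423-71537722, minus strand) an overlapping pair at −130 and −124. In Eif2ak2 (chr17:78882523-78882822, minus strand) the match began at 18, after the start, and in Trim30a (chr7:104465144-104465443, minus strand) at −36.
Isg15: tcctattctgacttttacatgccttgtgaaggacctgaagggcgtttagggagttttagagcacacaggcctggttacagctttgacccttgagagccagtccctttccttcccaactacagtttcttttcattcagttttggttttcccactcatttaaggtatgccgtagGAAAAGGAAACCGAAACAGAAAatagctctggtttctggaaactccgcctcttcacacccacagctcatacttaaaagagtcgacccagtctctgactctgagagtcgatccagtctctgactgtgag
Rsad2: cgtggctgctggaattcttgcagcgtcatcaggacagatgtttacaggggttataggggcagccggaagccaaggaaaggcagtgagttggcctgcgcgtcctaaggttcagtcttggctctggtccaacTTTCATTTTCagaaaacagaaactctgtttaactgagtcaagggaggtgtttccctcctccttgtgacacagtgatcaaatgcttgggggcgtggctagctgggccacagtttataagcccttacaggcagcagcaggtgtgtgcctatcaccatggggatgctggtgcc
Ifit3: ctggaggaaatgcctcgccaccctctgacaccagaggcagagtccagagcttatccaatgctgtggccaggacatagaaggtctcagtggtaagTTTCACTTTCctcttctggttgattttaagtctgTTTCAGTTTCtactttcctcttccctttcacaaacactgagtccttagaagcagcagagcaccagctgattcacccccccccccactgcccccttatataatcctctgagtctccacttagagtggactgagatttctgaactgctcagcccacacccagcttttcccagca
Oas1a: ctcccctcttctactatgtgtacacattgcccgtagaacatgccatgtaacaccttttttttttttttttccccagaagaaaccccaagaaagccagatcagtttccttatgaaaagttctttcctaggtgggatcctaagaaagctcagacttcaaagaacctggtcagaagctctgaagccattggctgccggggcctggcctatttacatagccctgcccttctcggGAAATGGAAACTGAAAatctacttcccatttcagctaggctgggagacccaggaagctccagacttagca
Bst2: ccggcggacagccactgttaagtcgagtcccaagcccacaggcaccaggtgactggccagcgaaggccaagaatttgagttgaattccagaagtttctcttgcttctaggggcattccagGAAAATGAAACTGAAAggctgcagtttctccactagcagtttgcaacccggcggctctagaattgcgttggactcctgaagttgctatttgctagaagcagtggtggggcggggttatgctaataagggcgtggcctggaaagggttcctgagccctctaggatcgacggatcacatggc
Eif2ak2: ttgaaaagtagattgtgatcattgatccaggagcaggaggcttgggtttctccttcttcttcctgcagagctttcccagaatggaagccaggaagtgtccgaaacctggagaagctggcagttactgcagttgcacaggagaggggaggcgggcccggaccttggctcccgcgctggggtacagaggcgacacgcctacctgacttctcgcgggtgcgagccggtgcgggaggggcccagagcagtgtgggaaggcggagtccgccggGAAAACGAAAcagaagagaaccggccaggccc
Trim30a: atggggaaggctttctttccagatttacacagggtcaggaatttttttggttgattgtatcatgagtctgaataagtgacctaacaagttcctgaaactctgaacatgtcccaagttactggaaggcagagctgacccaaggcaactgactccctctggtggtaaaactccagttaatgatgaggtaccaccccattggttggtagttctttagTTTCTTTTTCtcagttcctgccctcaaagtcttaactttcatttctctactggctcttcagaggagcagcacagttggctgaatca

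Before the results, 4 libraries have to be set apart. A list of 12 immediate early and stress genes, which respond within minutes to the handling of cells, summed to 1201 CPM in control 4 and to 1208, 1307 and 1200.4 in RMA-KR intermediate 3, 4 and 5. The sum was between 4228 and 9130 CPM in the 20 others. Fos was at most 88.3 CPM in those 4 libraries and at least 403 in the rest, and Ifng was at most 93.9 in the 4 and at least 251 in the rest. The 4 libraries also had counts on 24621 to 27820 genes, more than the 15263 to 24234 of the others. The 8 NK cell markers summed to 19056, 19017 and 17627 CPM in RMA-KR intermediate 3, 4 and 5, the lowest of all 24 libraries, to 21267 in control 4 and to 21150 to 32875 in the others, and Gzma was at most 6066 CPM in the 4 and at least 7779 in the rest. The part of these differences in the levels of the listed genes was not tested. No batch is given in the labels. For the comparisons that draw on these libraries the median of the list is given with and without them, an alternative chosen after seeing the data, and the results of single genes are given without them in part only. RMA intermediate and RMA late, the groups in which the listed genes were highest, had sums from 4228 to 5464 CPM, below the remaining 14 libraries (5940 or more); the part of handling in their levels was not tested.

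**Figure D1:**
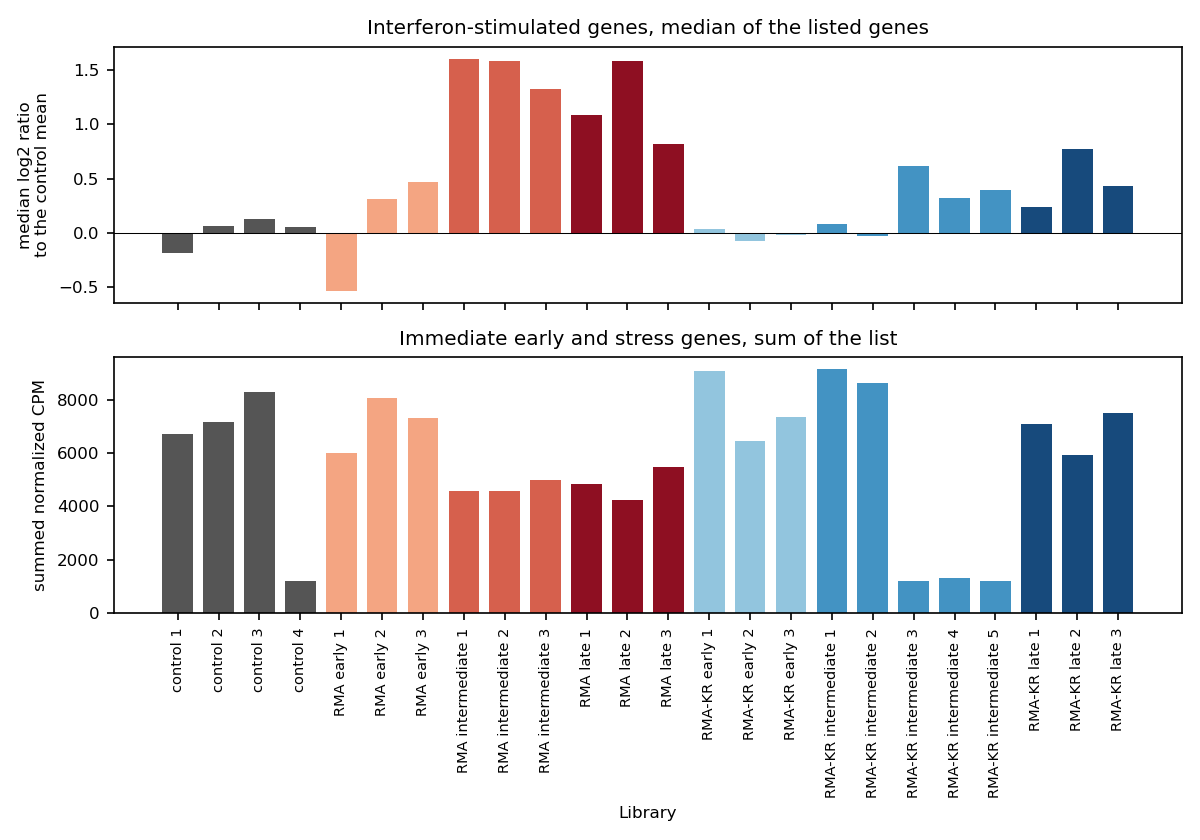
Upper bars give, for each library, the median over the 42 listed genes of the log2 ratio to the control mean, and lower bars the summed normalized CPM of the immediate early and stress genes. Control 4 and RMA-KR intermediate 3, 4 and 5 have sums near 1200 to 1307, and among the 5 RMA-KR intermediate libraries the 3 with low sums have the higher medians.

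Across the list, the NK cells of mice with RMA tumors at day 4 and day 9 stood out. The median of the listed genes, as a log2 ratio to the control mean, was 1.61, 1.59 and 1.33 in the RMA intermediate libraries and 1.09, 1.58 and 0.82 in the RMA late libraries. The control libraries were at −0.18, 0.06, 0.12 and 0.05. All 6 of the intermediate and late RMA libraries were above every other library. In RMA early the medians were −0.54, 0.31 and 0.47, the lowest of all 24 in RMA early 1, where Ifit1, Oasl1, Ifi44, Ifi27l2a, Oas2, Mx2 and Ifitm3 had no count. RMA-KR early stayed near the controls at 0.04, −0.07 and −0.02, and RMA-KR late lay between the controls and RMA late at 0.24, 0.77 and 0.43. RMA-KR intermediate split, with 0.08 and −0.03 in libraries 1 and 2 against 0.61, 0.32 and 0.40 in the 3 libraries with low immediate early genes. In bulk RNA, fewer cells of a type and less RNA per cell cannot be told apart.

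**Figure D2:**
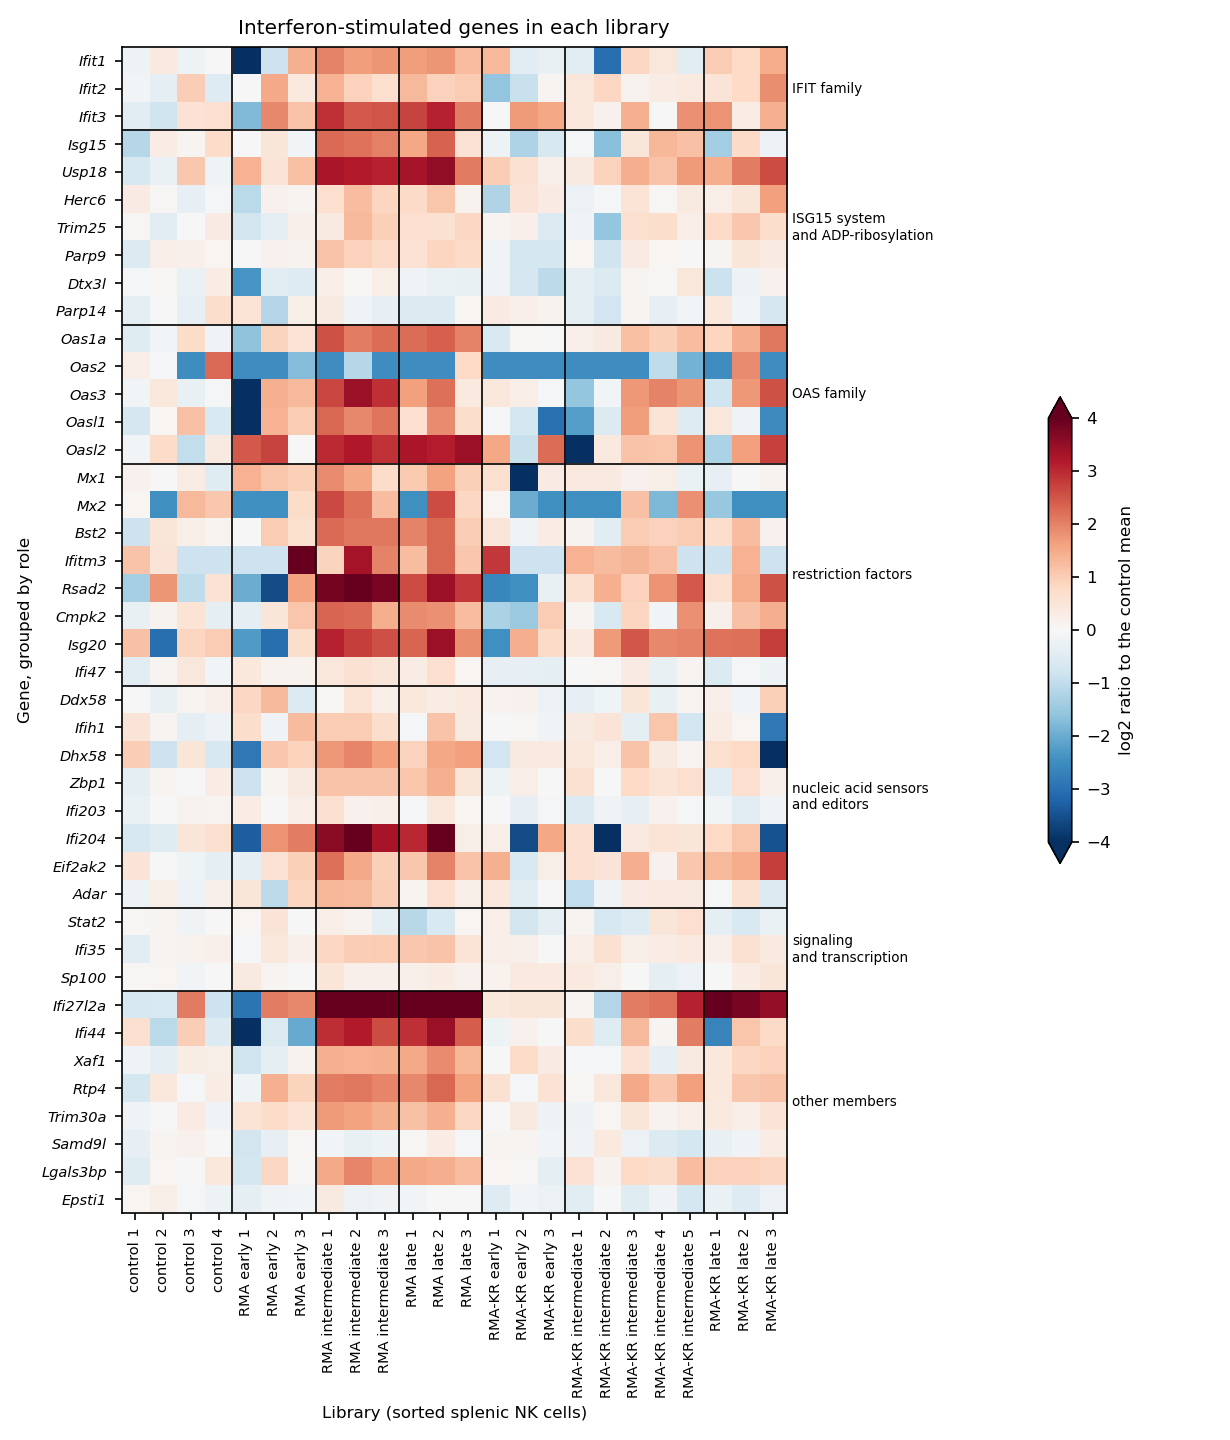
Each cell is the log2 ratio of a listed gene (vertical axis, by role) in a library (horizontal axis, by group) to its mean in the 4 controls, with colors limited at 4 in either direction. The RMA intermediate and RMA late columns are red for most genes, and the strongest single gene is Ifi27l2a.

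In RMA intermediate, 39 of the 42 listed genes had a higher fitted mean than in control, and 9 rose while none fell by edgeR. Over all genes tested, 1.26% were called higher and 0.386% lower in this comparison. The genes that rose were Usp18, Oas1a, Bst2, Zbp1, Ifi27l2a, Xaf1, Rtp4, Trim30a and Lgals3bp. The list's median log2 fold change was 1.59, against −0.29 over all genes tested, and the libraries did not overlap, with RMA intermediate higher, for 31 of 42 against 10.2% of all genes, and for 0 with RMA intermediate lower against 10.5%. At an unadjusted p under 0.05, 28 were higher and 0 lower, 66.7% of the list against 15.9% of all genes, and DESeq2 called 19 higher and 0 lower, with 302 higher and 148 lower over all genes. The count was 8 or 9 when any of the 7 libraries was left out, and 9 without RMA intermediate 1, where Ifi35 was called (1.00, adjusted p = 0.0205). Zbp1 was the gene lost each time, with adjusted p from 0.0517 (without control 4) to 0.122 (without control 1); it was 0.0681 without control 2, 0.0832 without control 3, 0.0663 without RMA intermediate 1, 0.0765 without RMA intermediate 2 and 0.0855 without RMA intermediate 3. Without the 4 libraries set apart, of which control 4 enters here, the median was 1.51 with 39 higher, the other 8 were called and Zbp1 had an adjusted p of 0.0514. With no filter on low counts, edgeR called 21 listed genes higher and 0 lower, with 350 higher and 127 lower over all 45237 genes.

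In RMA late, 37 of 42 were higher and 10 rose, the same 9 and Ifit3, with none lower by edgeR. All genes tested gave 1.42% higher and 0.368% lower. The list's median log2 fold change was 1.18 against −0.18 over all genes, and 23 of 42 did not overlap with RMA late higher, against 9.24% of all genes, and 0 with RMA late lower, against 8.81%. With unadjusted p under 0.05, 20 were higher and 0 lower, 47.6% against 14.0% of all genes, and DESeq2 called 13 higher and 0 lower, with 309 higher and 163 lower over all genes. Leaving out RMA late 2 cut the count to 7 and leaving out RMA late 3 raised it to 11, with Ifi35 added (1.12, adjusted p = 0.00241). Without RMA late 2 the adjusted p was 0.0947 for Bst2, 0.231 for Ifit3 and 0.328 for Zbp1. Ifit3 and Zbp1 were lost in 6 of the 7 fits, all but the fit without RMA late 3. For Ifit3 the adjusted p was 0.152 without control 1, 0.140 without control 2, 0.0806 without control 3, 0.0826 without control 4 and 0.150 without RMA late 1. For Zbp1 it was 0.167, 0.0917, 0.106 and 0.0729 without control 1, 2, 3 and 4, and 0.151 without RMA late 1. Without the 4 libraries set apart, the median was 1.11 with 37 higher, 8 were called, and the adjusted p was 0.0779 for Zbp1 and 0.0802 for Ifit3. With no filter on low counts, edgeR called 16 listed genes higher and 0 lower, with 343 higher and 129 lower over all 45237 genes.

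The genes of the ISG15 system act on ISG15, a small protein that cells attach to other proteins as they do ubiquitin. Isg15 itself (chromosome 4, 156199424 to 156200818), whose promoter is printed above, was at 2.03, 5.88, 5.16 and 8.12 CPM in the control libraries, 4.803, 6.70 and 4.36 in RMA early, 23.7, 22.1 and 19.7 in RMA intermediate and 14.2, 25.5 and 7.25 in RMA late. In mice with RMA-KR it was at 4.08, 1.91 and 2.98 at the early stage, 4.51, 1.35, 6.77, 12.3 and 10.9 at the intermediate and 1.69, 8.15 and 4.05 at the late stage. RMA intermediate was above all other groups except for RMA late 2, which had the highest level of all; RMA late 3 and all RMA-KR groups overlapped the controls. The log2 fold change was 2.03 (standard error 0.69, adjusted p = 0.151) in RMA intermediate and 1.55 (standard error 0.69, adjusted p = 0.310) in RMA late, so neither passed the test. In RMA-KR late it was −0.20 (standard error 0.69, adjusted p = 0.940), and 0.13 (adjusted p = 0.983) without the 4 libraries set apart.

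Usp18 (chromosome 6, 121245906 to 121270917) removes ISG15 from proteins and shuts down the type I interferon receptor. Its level was 16.6, 21.7, 55.9 and 23.3 CPM in control, 68.7, 37.6 and 60.7 in RMA early, 254, 236 and 223 in RMA intermediate and 266, 309 and 112 in RMA late. With RMA-KR it was 52.6, 40.4 and 30.3 at the early, 33.6, 49.6, 72.1, 58.0 and 86.7 at the intermediate and 72.2, 108 and 161 at the late stage. Every RMA intermediate, RMA late and RMA-KR late library was above every control, and RMA late 3 was inside the range of RMA-KR late. The means were 29.4 ± 17.9 (SD, n = 4) in control, 238 ± 15.4 (SD, n = 3) in RMA intermediate and 229 ± 104 (SD, n = 3) in RMA late. Usp18 rose by a log2 fold change of 3.01 (standard error 0.40, adjusted p = 0.000221) in RMA intermediate, 2.96 (standard error 0.40, adjusted p = 0.000288) in RMA late and 1.95 (standard error 0.39, adjusted p = 0.0121) in RMA-KR late. It was the only listed gene called in all 3 of those comparisons, but the RMA-KR late call was lost in 4 of its 7 fits with a library left out and without the 4 libraries set apart (adjusted p = 0.0506), as given below.

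Among the other genes of this group, Herc6 joins ISG15 to its targets in mice, Trim25 is a ubiquitin ligase that helps the RNA sensor RIG-I, and Parp9, Dtx3l and Parp14 act in ADP-ribosylation. Parp9 was at 205, 178 and 161 CPM in RMA intermediate against 64.1, 112, 108 and 99.9 in control. All 3 tumor libraries were above all 4 controls, and the log2 fold change of 0.92 (adjusted p = 0.0274) passed the adjusted p but was below a fold change of 2. In RMA late, Herc6, Trim25 and Parp9 had log2 fold changes of 0.72, 0.68 and 0.70, while Dtx3l and Parp14 were at −0.25 and −0.38; none of the 5 passed by edgeR. Herc6 shares 13.7% of its exon bases with a predicted gene on the same strand.

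IFIT proteins bind foreign RNA and block its translation. Ifit3 (chromosome 19, 34583531 to 34588731) was at 2.96, 2.31, 6.21 and 6.70 CPM in control, 1.07, 16.1 and 9.39 in RMA early, 32.7, 23.4 and 24.4 in RMA intermediate and 28.0, 36.2 and 17.8 in RMA late. It was at 4.08, 13.9 and 12.6 in RMA-KR early, 5.62, 4.68, 11.5, 4.21 and 15.1 in RMA-KR intermediate and 14.7, 5.13 and 11.4 in RMA-KR late. All 6 of the intermediate and late RMA libraries were above all 18 others. Ifit3 rose in RMA late, with a log2 fold change of 2.58 (standard error 0.70, adjusted p = 0.0458), a call lost without most single libraries as given above, and had 2.56 (standard error 0.70, adjusted p = 0.0528) in RMA intermediate. Its neighbours Ifit1 and Ifit2 were not called, with log2 fold changes of 1.80 (adjusted p = 0.312) and 0.89 (adjusted p = 0.294) in RMA intermediate. Ifit1 was above every control in all 6 of those RMA libraries and in RMA-KR late, whereas Ifit2 overlapped the controls in every tumor group. Its highest control was control 3, at 131 CPM.

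OAS enzymes sense double-stranded RNA and make a messenger that activates an RNA-cutting enzyme. Oas1a (chromosome 5, 120896256 to 120907521) was at 16.3, 21.1, 37.4 and 20.3 CPM in control, 7.34, 41.9 and 32.8 in RMA early, 134, 93.3 and 107 in RMA intermediate and 107, 119 and 90.8 in RMA late. In the RMA-KR groups it was at 14.7, 23.4 and 22.9 (early), 26.2, 29.3, 52.3, 43.9 and 53.5 (intermediate) and 41.6, 61.9 and 98.8 (late). The intermediate and late RMA libraries were above all controls and all early libraries; RMA-KR late was above all controls too, and RMA-KR late 3 reached the range of the RMA groups. Oas1a rose by 2.23 (standard error 0.42, adjusted p = 0.00474) on the log2 scale in RMA intermediate and by 2.15 (standard error 0.42, adjusted p = 0.00507) in RMA late, with means of 111 ± 20.8 (SD, n = 3) and 106 ± 14.4 (SD, n = 3) against 23.8 ± 9.33 (SD, n = 4) in control. In RMA-KR late its log2 fold change was 1.501 (standard error 0.42, adjusted p = 0.0836). Oas3 was at 144, 251 and 174.4 CPM in RMA intermediate and 70.7, 104 and 29.9 in RMA late against 20.9, 30.8, 18.5 and 22.1 in control. The 3 intermediate libraries were above all controls, RMA late 3 was inside the control range, and neither the log2 fold change of 3.04 (adjusted p = 0.0626) nor that of 1.56 (adjusted p = 0.403) passed. For the relatives Oasl1 and Oasl2 the log2 fold changes in RMA late were 1.00 (adjusted p = 0.743) and 3.20 (adjusted p = 0.0958). Oas2 was close to the limit of detection, with 1 count over all RMA early libraries, 3 over RMA intermediate, 0 over RMA-KR early and 71 over control, most of these in control 4, and no fold change is given.

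Restriction factors act on viruses directly. Rsad2 (chromosome 12, 26442746 to 26456452) makes viperin, which turns a nucleotide into a chain terminator of viral RNA. Its level was 0.739, 7.72, 0.948 and 3.30 CPM in control, 0.400, 0 and 6.87 in RMA early, 32.6, 36.7 and 32.2 in RMA intermediate and 13.9, 24.9 and 16.4 in RMA late. With RMA-KR it was 0.185, 0.230 and 1.69 at the early stage, 3.33, 6.03, 4.24, 7.85 and 12.5 at the intermediate stage and 3.47, 6.32 and 13.5 at the late stage. RMA intermediate was above all 21 other libraries and RMA late was above all libraries of the 5 remaining groups, though RMA late 1 only just exceeded RMA-KR late 3. The spread between the controls was wide, and the log2 fold changes of 3.39 (standard error 1.06, adjusted p = 0.106) in RMA intermediate and 2.52 (standard error 1.03, adjusted p = 0.263) in RMA late did not pass. Cmpk2, which lies next to Rsad2 and supplies the nucleotide that viperin uses, was at 124, 119 and 67.3 CPM in RMA intermediate against 20.1, 26.8, 35.6 and 18.8 in control. Its libraries did not overlap, and its log2 fold change was 2.03 (adjusted p = 0.0556).

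Bst2 (chromosome 8, 71534255 to 71537456), or tetherin, holds budding virus at the cell surface and is also a marker of plasmacytoid dendritic cells. It was at 12.4, 30.9, 25.8 and 23.8 CPM in control, 22.4, 44.6 and 34.4 in RMA early, 106, 95.4 and 96.05 in RMA intermediate and 87.5, 108 and 43.5 in RMA late. The RMA-KR libraries had 30.6, 19.99 and 26.9 at the early, 24.5, 16.5, 45.1, 41.7 and 44.6 at the intermediate and 35.7, 52.4 and 24.7 at the late stage. RMA intermediate and RMA late were above all controls, but RMA late 3 was inside the range of RMA-KR intermediate and RMA-KR late. Bst2 rose by 2.09 (standard error 0.38, adjusted p = 0.00383) on the log2 scale in RMA intermediate and by 1.78 (standard error 0.38, adjusted p = 0.00975) in RMA late, and without RMA late 2 the late value was 1.52 (adjusted p = 0.0947).

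The remaining restriction factors did not pass the test by edgeR in any of the 11 comparisons. Isg20, an RNA-degrading nuclease, was at 13.0, 10.5 and 9.17 CPM in RMA intermediate and 7.74, 17.0 and 5.46 in RMA late against 3.33, 0, 2.63 and 2.95 in control, with log2 fold changes of 2.29 (adjusted p = 0.331) and 2.18 (adjusted p = 0.409). Both RMA groups were above all controls. Mx1, a GTPase whose allele in C57BL/6 mice is defective, had 1.44 (adjusted p = 0.309) and 1.22 (adjusted p = 0.434) in the same comparisons. Ifi47, a GTPase of the immunity-related family, was abundant in control at 352, 528, 662 and 447 CPM and varied little, with 0.48 in RMA intermediate and 0.32 in RMA late on the log2 scale. Mx2 was at most 6.35 CPM and Ifitm3 at most 6.35 in any library, and no fold change is given for either.

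Among sensors and editors of nucleic acid, Eif2ak2 (chromosome 17, 78852564 to 78882573) encodes PKR, which halts translation when it meets double-stranded RNA. It was at 26.4, 18.5, 16.2 and 14.2 CPM in control, 14.0, 27.5 and 35.4 in RMA early, 85.7, 52.9 and 35.9 in RMA intermediate and 39.0, 73.3 and 41.0 in RMA late. In RMA-KR early it was at 49.8, 11.9 and 21.6, in RMA-KR intermediate at 28.4, 26.6, 50.6, 20.5 and 38.8 and in RMA-KR late at 45.0, 51.6 and 126. RMA intermediate, RMA late and RMA-KR late were each above all controls, and RMA-KR late 3 was the highest of all 24 libraries. Eif2ak2 rose in RMA-KR late, with a log2 fold change of 1.98 (standard error 0.47, adjusted p = 0.0360), and not in RMA intermediate (1.63, standard error 0.47, adjusted p = 0.0693) or RMA late (1.44, standard error 0.47, adjusted p = 0.114). The RMA-KR late call was lost without RMA-KR late 3 (log2 fold change 1.41, adjusted p = 0.242), without any single control and without the 4 libraries set apart, as given below. RMA-KR late 3 also had the largest share of counts on mitochondrial genes, 1.71% against at most 1.30% in the others. It had the highest sum of plasmacytoid dendritic cell markers of all libraries as well, but Tcf4 made up 103 CPM of that 108. Siglech, Ccr9, Spib and Klk1 had no count in it. Without Tcf4 the sums were 2.58 to 4.72 CPM in RMA-KR late and 2.53 to 5.71 in control. The part of the mitochondrial share or of these markers in its Eif2ak2 level was not tested. Directly compared, RMA late and RMA-KR late differed by −0.54 (adjusted p = 0.809).

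Zbp1, a sensor of left-handed nucleic acid that can start cell death, was at 65.6, 93.4, 86.6 and 106 CPM in control, 189, 190.5 and 193 in RMA intermediate and 186, 231 and 120.1 in RMA late. Both RMA groups were above all controls. It rose by 1.12 (standard error 0.27, adjusted p = 0.0272) and 1.02 (standard error 0.27, adjusted p = 0.0436) on the log2 scale, calls that leaving out most single libraries removes, as given above. Ifi204, a DNA sensor, was at 39.2, 61.0 and 31.7 CPM in RMA intermediate and 26.1, 55.7 and 3.57 in RMA late against 1.85, 2.12, 4.32 and 4.82 in control. The RMA intermediate libraries and RMA late 2 were the 4 highest, RMA late 3 was inside the control range, and the log2 fold changes were 3.73 (adjusted p = 0.166) and 3.11 (adjusted p = 0.263). Ddx58 (RIG-I), Ifih1 (MDA5) and Dhx58 (LGP2), the cytosolic RNA sensors, had 0.30, 0.89 and 1.61 in RMA intermediate, and the RNA editor Adar had 1.19. None of these 4 passed by edgeR, and Ifi203, a relative of Ifi204, had 0.35.

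Several of the genes that rose fall outside those families. Ifi27l2a (chromosome 12, 103442167 to 103443680) encodes a small membrane protein and was almost silent in control, at 0.739, 0.772, 6.00 and 0.625 CPM. It was at 0, 5.88 and 5.29 in RMA early, 153, 39.8 and 63.2 in RMA intermediate and 122, 142 and 102 in RMA late, and at 1.76, 1.84 and 1.85 in RMA-KR early, 1.39, 0.450, 5.85, 6.37 and 12.3 in RMA-KR intermediate and 25.6, 20.03 and 16.4 in RMA-KR late. The 6 intermediate and late RMA libraries were above all others, and the 3 RMA-KR late libraries were above all libraries of the 4 other groups. Its log2 fold changes of 5.36 (standard error 1.00, adjusted p = 0.00420) in RMA intermediate and 5.88 (standard error 1.02, adjusted p = 0.00193) in RMA late were the largest of the list. Leaving out control 3 gave 6.86 (adjusted p = 0.00226) in RMA intermediate and 7.38 (adjusted p = 0.00176) in RMA late. RMA-KR late had 3.32 (standard error 0.93, adjusted p = 0.0904), which did not pass; without control 3, whose level is the highest of the controls, it was called (4.83, adjusted p = 0.0323).

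Rtp4 (chromosome 16, 23520291 to 23614222) helps G protein-coupled receptors reach the surface. The gene shares 13.9% of its exon bases with a predicted gene on the same strand. It was at 17.7, 38.9, 28.0 and 35.2 CPM in control, 25.8, 77.8 and 53.5 in RMA early, 120.5, 123 and 111 in RMA intermediate and 109, 142 and 87.6 in RMA late, and in the RMA-KR groups at 44.0, 28.0 and 42.7 (early), 29.7, 39.2, 82.6, 60.3 and 89.7 (intermediate) and 38.2, 60.5 and 62.9 (late). The RMA intermediate and RMA late libraries were above all controls, although RMA late 3 was below RMA-KR intermediate 5. Rtp4 rose by 1.98 (standard error 0.37, adjusted p = 0.00457) and 1.91 (standard error 0.37, adjusted p = 0.00481) on the log2 scale. Xaf1 (chromosome 11, 72301629 to 72313733), which promotes cell death by binding an inhibitor of caspases, was at 32.2, 28.4, 44.9 and 43.0 CPM in control, 20.8, 28.1 and 40.1 in RMA early, 98.7, 95.8 and 98.7 in RMA intermediate and 104, 136 and 92.3 in RMA late. With RMA-KR it was at 36.4, 60.8 and 45.7, 34.8, 35.5, 54.9, 29.2 and 47.0 and 48.8, 64.6 and 69.1 at the early, intermediate and late stages. The 6 intermediate and late RMA libraries were above all 18 others, and RMA-KR late was above all controls. Xaf1 rose by 1.40 (standard error 0.27, adjusted p = 0.00507) in RMA intermediate and 1.58 (standard error 0.27, adjusted p = 0.00155) in RMA late on the log2 scale.

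**Figure D3:**
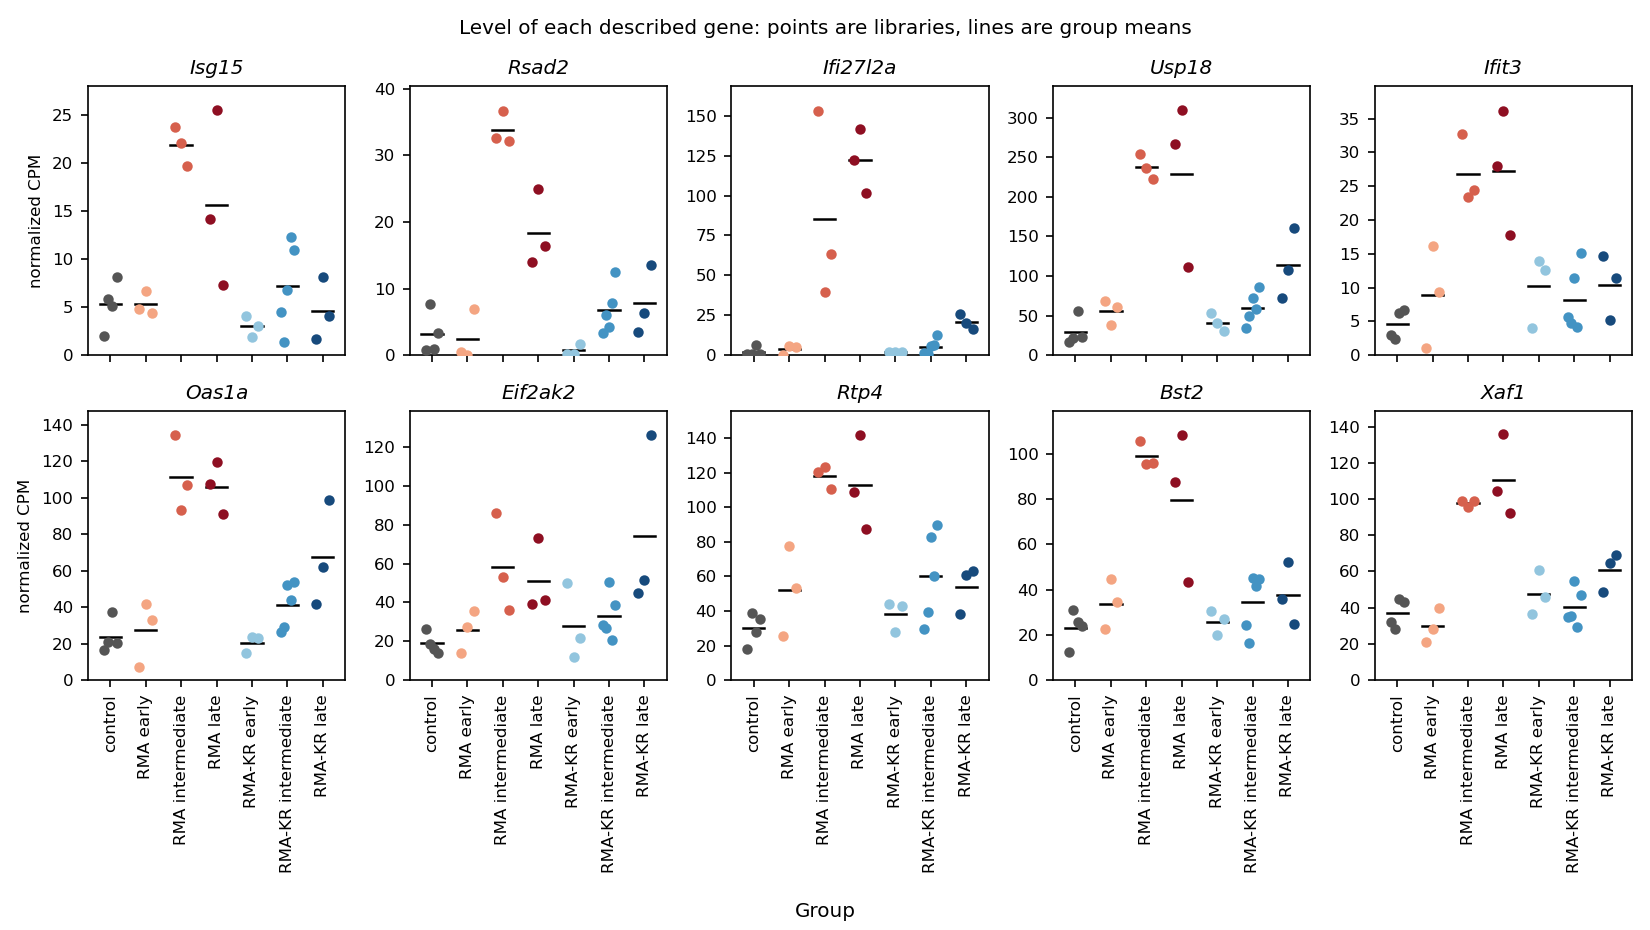
Normalized CPM (vertical axis, from 0) of the 10 genes described with the value of every library, by group (horizontal axis), with a point for each library and a line at the group mean. RMA intermediate and RMA late are the highest groups for 9 of the 10, and Eif2ak2 is highest in RMA-KR late.

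Trim30a, which damps signaling by Toll-like receptors, was at 164, 176, 224 and 162 CPM in control, 580.5, 555 and 484 in RMA intermediate and 402, 482 and 318 in RMA late. Both RMA groups were above all controls, and the log2 fold change of 1.57 (standard error 0.18, adjusted p = 0.000109) in RMA intermediate had the smallest adjusted p of the list. In RMA late it was 1.14 (standard error 0.18, adjusted p = 0.000773). Lgals3bp, a secreted glycoprotein that binds galectins, was at 245, 362, 351 and 461 CPM in control, 994, 1354 and 1113 in RMA intermediate and 987, 950.0 and 815 in RMA late. Again the groups did not overlap, and Lgals3bp rose by 1.70 (standard error 0.26, adjusted p = 0.000889) and 1.37 (standard error 0.26, adjusted p = 0.00446) on the log2 scale. Ifi44 was at 15.0, 4.44, 19.3 and 6.52 CPM in control, 75.6, 88.1 and 58.9 in RMA intermediate and 73.2, 108 and 52.2 in RMA late, above all controls in each case, with log2 fold changes of 2.72 (adjusted p = 0.0841) and 2.79 (adjusted p = 0.0702).

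The remaining listed genes were not called in these comparisons. Epsti1 was at 509, 559.5 and 544 CPM in RMA late against 580.3, 644, 521 and 481 in control, inside the control range, and Samd9l, which restrains cell growth, had −0.21 and 0.08 on the log2 scale in RMA intermediate and RMA late. Stat2, a transcription factor of the pathway, had 0.04 and −0.47, and Sp100, a component of nuclear bodies, 0.30 and 0.22. None of these 4 passed by edgeR in any comparison. Ifi35 had 0.92 (adjusted p = 0.00834) and 0.92 (adjusted p = 0.00737) and so passed the adjusted p without a fold change of 2. With DESeq2's size factors, no listed gene changed sign in RMA late and 1 did in RMA intermediate.

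Per kilobase of transcript, the levels of the listed genes in control NK cells spanned a wide range. The length used was the median over a gene's transcripts, which can be far below its exon bases. It was 534 against 4111 bases for Trim30a and 686 against 2847 for Lgals3bp, so the order of the genes depends on the length used. The highest were Lgals3bp at 517 CPM per kilobase, Sp100 at 492, Epsti1 at 473, Trim30a at 339.9 and Ifi47 at 296. The lowest were Ifitm3 at 0.311, Oas2 and Mx2 at 0.559 each and Rsad2 at 0.840. Ifi27l2a went from 4.40 in control to 184 in RMA intermediate and 264 in RMA late, and Usp18 from 46.2 to 374 and 360.1. Isg15, at 7.01 in control, was at 28.9 in RMA intermediate and 20.7 in RMA late. Of the 5 highest in control, Lgals3bp and Trim30a rose and Sp100, Epsti1 and Ifi47 were not called by edgeR in any of the 11 comparisons.

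By promoter, the 14 genes with a match to the response element letters had a median log2 fold change of 1.92 in RMA intermediate, the 17 genes searched without a match 0.92, and the 11 genes not searched 1.61. In RMA late the medians were 1.56, 0.92 and 1.22. Of the genes that rose in RMA intermediate, 3 held a match, 2 did not and 4 were not searched. For RMA late the numbers were 4, 2 and 4. No test was made of this difference.

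RMA early, at day 2, shows what NK cells looked like soon after the tumor cells were given. None of the 42 listed genes was called by edgeR or by DESeq2, against 0% of all genes called higher and 0% lower. Counting unadjusted p under 0.05, 5 were higher and 2 lower, 16.7% against 7.04% of all genes, and DESeq2 called 6 higher and 13 lower over all genes. The median log2 fold change was 0.20 against −0.06 over all genes, and 28 of 42 were higher, or 30 with DESeq2's size factors. Trim30a was at 262, 302 and 261 CPM, above all controls, with 0.60 (adjusted p = 0.504), and Mx1 was at 53.6, 43.7 and 39.7, above all controls as well, with 1.15 (adjusted p = 0.730). Dtx3l, at 31.0, 116 and 112 CPM, was below all controls. The libraries did not overlap, with RMA early higher, for only these 2 of 42, against 2.12% of all genes. With RMA early lower they did not overlap for 1 of 42, against 4.94%. Without RMA early 3, 1 gene, Ddx58, was called (1.095, adjusted p = 0.0461). RMA early 1 differed from its group in many genes, and without it the median was 0.40 and 32 of 42 were higher. The median was 0.16 without RMA early 3, and 0.29 with 31 of 42 higher without the 4 libraries set apart, of which control 4 enters here.

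RMA-KR early, at the same day, gave no call among the 42 by edgeR or by DESeq2, against 0% of all genes higher and 0.0819% lower. By unadjusted p under 0.05, 0 were higher and 3 lower, 7.14% against 8.71% of all genes, and over all genes DESeq2 called 15 higher and 76 lower. The list divided evenly, with 21 genes higher and 21 lower than control, and its median log2 fold change was −0.03 against 0.00 over all genes. That sign depends on the fit, since without the 4 libraries set apart, of which control 4 enters here, the median was 0.06 with 23 higher, and DESeq2 gave 0.06 with 22 higher. Without control 3 it was 0.06 and without control 4 it was 0.04.

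RMA-KR intermediate, at day 7, also gave no call by edgeR or by DESeq2. For 21 of the 42 listed genes DESeq2 gave no adjusted p here, so it could not call them. Of all genes, edgeR called 0.0175% higher and 0% lower. Taking unadjusted p under 0.05, 5 listed genes were higher and 1 lower, 14.3% against 5.91% of all genes, and DESeq2 called 14 higher and 1 lower over all genes. Rtp4 had the smallest adjusted p of the 42, with a log2 fold change of 1.00 (standard error 0.33, adjusted p = 0.669), and Usp18 had 1.02 (adjusted p = 0.687). The highest 3 of the 5 Usp18 levels were in the libraries with low immediate early genes. The list's median was 0.23 against 0.01 over all genes, and 32 of 42 were higher. It ran from 0.15 without control 2 to 0.33 without control 3. With control 4 and RMA-KR intermediate 3, 4 and 5 left out, 2 tumor libraries and 3 controls remained, the median was −0.16 with 17 of 42 higher, and 17 listed genes changed sign. Usp18 then had 0.42 (adjusted p = 0.899) and Isg15 −0.55 (adjusted p = 0.958). The direction of the list in RMA-KR intermediate therefore depends on the libraries set apart. With no filter on low counts, edgeR called 1 listed gene higher and 0 lower, with 45 higher and 11 lower over all 45237 genes.

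RMA-KR late, at day 14, had 28 of 42 genes higher than control, and Usp18 and Eif2ak2 rose, with none lower by edgeR. Over all genes, 0.719% were called higher and 0.263% lower. The median log2 fold change was 0.35 against −0.18 over all genes, and 9 of 42 did not overlap with RMA-KR late higher, against 5.88% of all genes, and 2 (Stat2 and Epsti1) with RMA-KR late lower, against 7.73%. At an unadjusted p under 0.05, 11 were higher and 0 lower, 26.2% against 14.2% of all genes, and DESeq2 called 4 higher and 0 lower, with 205 higher and 116 lower over all genes. The median ran from 0.29 without RMA-KR late 2 to 0.48 without RMA-KR late 1. Both calls were fragile. The count was 0 without control 1, control 2, control 4 or RMA-KR late 3. For Usp18 the adjusted p was then 0.0522, 0.0586, 0.0577 and 0.0550, and for Eif2ak2 0.0531, 0.111, 0.137 and 0.242. Without control 3, Eif2ak2 was lost (adjusted p = 0.118) and Ifi27l2a was called with Usp18 (adjusted p = 0.0323 for Ifi27l2a). Without the 4 libraries set apart, of which control 4 enters here, the count was 0 and the median 0.50 with 31 higher, with 1.90 (adjusted p = 0.0506) for Usp18 and 1.91 (adjusted p = 0.116) for Eif2ak2. With no filter on low counts, edgeR called 6 listed genes higher and 0 lower, with 269 higher and 125 lower over all 45237 genes.

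**Figure D4:**
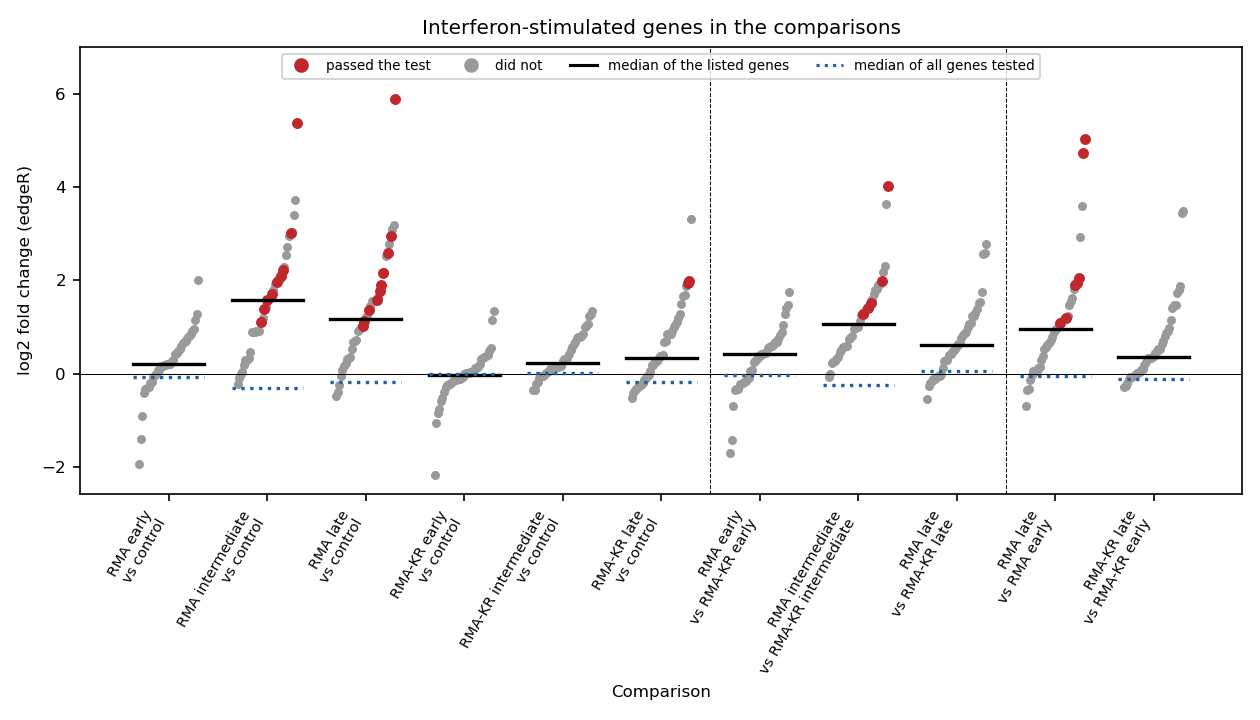
Log2 fold changes by edgeR (vertical axis) of 39 listed genes in the 11 comparisons (horizontal axis), without Oas2, Mx2 and Ifitm3, which were close to the limit of detection. Red points passed the test, black lines mark the median of all 42 listed genes and dotted lines that of all genes tested; the black line is highest, at 1.59, for RMA intermediate against control.

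The direct comparison of the tumors asks whether NK cells from mice with RMA, which keeps MHC-I, differ from those from mice with RMA-KR. At the intermediate stage 40 of 42 listed genes were higher in RMA than in RMA-KR, and 5 were called, namely Usp18, Bst2, Ifi27l2a, Xaf1 and Trim30a, with none called lower by edgeR. Of all genes, 0.48% were called higher in RMA and 0.0234% lower. Usp18 differed by 1.99 (standard error 0.37, adjusted p = 0.00760), Trim30a by 1.41 (standard error 0.17, adjusted p = 0.000126), Ifi27l2a by 4.02 (standard error 0.85, adjusted p = 0.0266), Xaf1 by 1.28 (standard error 0.25, adjusted p = 0.0140) and Bst2 by 1.52 (standard error 0.35, adjusted p = 0.0437) on the log2 scale. The list's median was 1.07 against −0.23 over all genes, and 26 of 42 did not overlap with RMA higher, against 5.82% of all genes, and 0 with RMA lower, against 3.36%. With unadjusted p under 0.05, 25 were higher and 0 lower, 59.5% against 14.2% of all genes, and DESeq2 called 7 higher and 0 lower, with 122 higher and 52 lower over all genes. With no filter on low counts, edgeR called 15 listed genes higher and 0 lower, with 204 higher and 68 lower over all 45237 genes.

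Single libraries changed the calls of this comparison. Without the 4 libraries set apart, of which RMA-KR intermediate 3, 4 and 5 enter here, the same 5 genes were called and the median was 1.53 with 40 higher, with the median of all genes 0.13 higher than in the full fit. Trim30a and Usp18 were still called whichever of the 8 libraries was left out. The count was 2 without RMA intermediate 1, RMA-KR intermediate 1 or RMA-KR intermediate 4, and 3 without RMA intermediate 2, RMA intermediate 3 or RMA-KR intermediate 2. Parp9 was called without RMA-KR intermediate 3 (1.04, adjusted p = 0.0314) and Lgals3bp without RMA-KR intermediate 5 (1.16, adjusted p = 0.0420). Bst2 was lost in all 8 fits, with adjusted p from 0.0617 (without RMA-KR intermediate 3) to 0.164 (without RMA intermediate 1), and it was 0.133, 0.136, 0.123, 0.103, 0.0976 and 0.0649 without RMA intermediate 2 and 3 and RMA-KR intermediate 1, 2, 4 and 5. Xaf1 was lost without RMA intermediate 1, 2 or 3 (0.0585, 0.0536 and 0.0728) and without RMA-KR intermediate 1 or 4 (0.0511 and 0.0669). Ifi27l2a was lost without RMA intermediate 1 (0.165) and without RMA-KR intermediate 1, 2, 3 or 4 (0.0801, 0.0525, 0.0659 and 0.0899).

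At the early stage, where both tumors were at day 2, none of the 42 differed between RMA and RMA-KR by edgeR or by DESeq2, against 0.175% of all genes higher and 0.129% lower. Counting unadjusted p under 0.05, 5 were higher in RMA and 1 lower, 14.3% against 12.3% of all genes, and DESeq2 called 116 higher and 65 lower over all genes. The median was 0.43 against −0.03 over all genes, with 29 of 42 higher. It was 0.17 with 24 higher without RMA early 3, 0.21 without RMA early 2, 0.26 without RMA-KR early 2 and 0.56 without RMA early 1. Ifit2 was at 65.8, 190.0 and 88.3 CPM in RMA early and 22.2, 35.99 and 72.2 in RMA-KR early, a log2 difference of 1.40 (adjusted p = 0.218) between groups that overlapped. At the late stage 31 of 42 were higher in RMA, and again none was called by edgeR or by DESeq2, against 0% of all genes higher and 0% lower. By unadjusted p under 0.05, 12 were higher and 0 lower, 28.6% against 7.31% of all genes, and DESeq2 called 4 higher and 6 lower over all genes. The median was 0.63 against 0.06 over all genes, from 0.47 without RMA late 2 to 0.75 without RMA late 3, and 16 of 42 did not overlap with RMA higher, against 5.18% of all genes, and 0 with RMA lower, against 3.95%. Trim30a differed by 0.76 (adjusted p = 0.655), Xaf1 by 0.86 (adjusted p = 0.655) and Ifi27l2a by 2.56 (adjusted p = 0.655), each without overlap. With no filter on low counts, edgeR called 1 listed gene at the early stage and 2 at the late stage, all higher in RMA. Over all 45237 genes it then called 104 higher and 84 lower at the early stage, and 14 higher and 14 lower at the late stage.

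Within each tumor the late and early stages were also compared. In RMA, 36 of 42 were higher late than early, or 33 with DESeq2's size factors, and 7 rose, namely Usp18, Oas1a, Zbp1, Ifi27l2a, Ifi44, Xaf1 and Lgals3bp, with none lower by edgeR. Of all genes, 1.48% were higher and 0.532% lower. Ifi44 was at 0, 6.39 and 2.25 CPM early and 73.2, 108 and 52.2 late and Ifi27l2a at 0, 5.88 and 5.29 and 122, 142 and 102, with log2 fold changes of 4.73 (standard error 1.00, adjusted p = 0.0122) and 5.02 (standard error 1.101, adjusted p = 0.0150). In both cases the stages did not overlap. Usp18 rose by 2.04 (adjusted p = 0.0129), Oas1a by 1.95 (adjusted p = 0.0231), Xaf1 by 1.90 (adjusted p = 0.00131), Lgals3bp by 1.21 (adjusted p = 0.0246) and Zbp1 by 1.09 (adjusted p = 0.0474). The list's median was 0.96 against −0.05 over all genes, 17 were higher and 0 lower at an unadjusted p under 0.05, 40.5% against 17.2% of all genes, and DESeq2 called 7 higher and 0 lower, with 322 higher and 307 lower over all genes.

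This count leaned on RMA early 1 and RMA late 2, the libraries with the lowest and the highest levels of their groups. It was 1 (Xaf1) without RMA late 2, where the median was 0.67, 3 without RMA early 1, where the median was 0.67 as well, and 4 without RMA late 1. Without RMA late 2 the adjusted p was 0.0551 for Ifi44, 0.0830 for Usp18, 0.0575 for Ifi27l2a, 0.0981 for Oas1a, 0.0947 for Lgals3bp and 0.286 for Zbp1. Without RMA early 1 it was 0.0527 for Ifi27l2a, 0.0915 for Oas1a, 0.137 for Lgals3bp and 0.240 for Zbp1. Without RMA late 1 it was 0.0661 for Oas1a, 0.0756 for Lgals3bp and 0.134 for Zbp1. Usp18 (0.0559) and Zbp1 (0.0889) were lost without RMA early 2, and Lgals3bp (0.0543) without RMA early 3, where Rsad2 (0.0130) and Isg20 (0.0326) were called. Without RMA late 3, Bst2 was called as well (1.54, adjusted p = 0.0468). Xaf1 was called in all 6 fits.

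In RMA-KR, 32 of 42 were higher late than early, with a median of 0.37 against −0.10 over all genes, but edgeR called none, against 0.234% of all genes higher and 0.0877% lower. Taking unadjusted p under 0.05, 10 were higher and 0 lower, 23.8% against 15.0% of all genes, and DESeq2 called 3, namely Ifit2, Usp18 and Oas1a, with 165 higher and 109 lower over all genes. The median ran from 0.33 without RMA-KR late 3 to 0.53 without RMA-KR early 1. Ifit2 was at 22.2, 35.99 and 72.2 CPM early and 96.1, 117 and 242 late, without overlap, and its log2 fold change of 1.80 (adjusted p = 0.0804) did not pass; without RMA-KR early 3 it was called (2.41, adjusted p = 0.0335). Usp18 had 1.47 (adjusted p = 0.144) and Ifi27l2a 3.50 (adjusted p = 0.153). With no filter on low counts, edgeR called 6 listed genes higher and 0 lower, with 248 higher and 89 lower over all 45237 genes. Whether the change from early to late differed between the tumors was not tested.

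The pathway around the list was followed with 30 genes, of which 25 could be tested. The receptor genes Ifnar1 and Ifnar2 were at 216, 223, 252 and 208 and at 145, 151, 128 and 140.3 CPM in control. In RMA late their log2 fold changes were −0.04 (adjusted p = 0.966) and −0.37 (adjusted p = 0.484), and Ifnar2 was below all controls in RMA early, RMA intermediate, RMA-KR early and RMA-KR late without passing. Irf9, a DNA-binding part of the complex, had 0.64 (adjusted p = 0.137) in RMA intermediate, and Irf7, which amplifies interferon production, had 0.63 (adjusted p = 0.0786). Both were above all controls there. Of the interferon genes, Ifng is the one NK cells make, and it had 0.59 (adjusted p = 0.601) in RMA intermediate and 1.08 (adjusted p = 0.351) in RMA late. Control 4 had the lowest Ifng of the controls, and without the 4 libraries set apart these values were 0.28 (adjusted p = 0.493) and 0.77 (adjusted p = 0.0361). Ifna2 and Ifnl3 had too few counts to be tested, and Ifnb1 and Ifna4 were not analysed here.

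Interferon-γ induces many of the same genes, so 16 genes known as its targets were counted beside the list. Gbp3 and Gbp6, GTPases that attack vacuoles holding microbes, rose in RMA intermediate and RMA late, and no gene of these 16 was called lower in any of the 11 comparisons by edgeR. Gbp6 was at 2.96, 2.99, 3.69 and 6.07 CPM in control, 22.7, 28.0 and 25.4 in RMA intermediate and 24.2, 33.9 and 25.01 in RMA late, without overlap. Its log2 fold changes were 2.68 (standard error 0.52, adjusted p = 0.00576) and 2.81 (standard error 0.53, adjusted p = 0.00363). Gbp3 had 1.045 (standard error 0.19, adjusted p = 0.00281) and 1.06 (standard error 0.19, adjusted p = 0.00206), but its fold change fell below 2 in RMA intermediate without control 1 (0.99), control 4 (0.89) or RMA intermediate 1 (0.99), in RMA late without control 4 (0.92), and in both without the 4 libraries set apart (0.94 and 0.95). The median log2 fold change of the 16 was 0.60 in RMA intermediate and 0.51 in RMA late, and 0.13 in RMA-KR late. Iigp1, Ciita and Cxcl9, other known targets, were not called in any comparison.

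Markers of other cell types were summed in each library. The 10 macrophage and monocyte markers summed to 359 to 579 CPM in control, 205 to 313 in RMA late and 144 to 218 in RMA-KR late, and Ly6c2 made up 91.8% of the sum over all libraries. Ly6c2, which NK cells can express themselves, fell in RMA late (log2 fold change −1.14, adjusted p = 0.0308), in RMA-KR late (−2.02, adjusted p = 0.00113) and from RMA-KR early to RMA-KR late (−1.48, adjusted p = 0.0342). The RMA late call was lost without control 2, 3 or 4 (adjusted p 0.0627, 0.0897 and 0.0522) or RMA late 1 or 3 (0.203 and 0.168). The call between RMA-KR late and early was lost without RMA-KR early 1, 2 or 3 (0.0973, 0.122 and 0.0548) or RMA-KR late 1 or 3 (0.0987 and 0.0992). Without Ly6c2 the sum was 8.74 to 18.5 CPM in control, 34.0 to 51.0 in RMA late and 36.2 to 80.1 in RMA-KR late, and Cd68 gave most of it. The defining genes Adgre1, Fcgr1 and C1qa were at 0 in most libraries. The 6 markers of plasmacytoid dendritic cells, a main source of type I interferon, summed to 37.5 to 46.1 CPM in control, 29.0 to 43.1 in RMA intermediate and 36.1 to 49.3 in RMA late, with Tcf4 as the most abundant. They summed to 24.3 to 65.8 in RMA early, 63.9 to 76.7 in RMA-KR early, above every control, 33.3 to 81.9 in RMA-KR intermediate and 34.2 to 108 in RMA-KR late. Tcf4, which other lymphocytes also express, made up 92.2% of the sum over all libraries. Without Tcf4 the sum was 2.53 to 5.71 CPM in control and 2.32 to 13.4 in RMA-KR early, which overlap. It was then 1.39 to 7.91 in RMA-KR intermediate and 2.58 to 4.72 in RMA-KR late. The 10 T cell markers, which RMA cells may also carry, summed without Lck to 13.7 to 47.3 CPM in control, 19.9 to 29.1 in RMA intermediate and 29.0 to 52.8 in RMA late. The 8 B cell markers, mostly Ighm, summed to 239 to 399 CPM in control, 218 to 284 in RMA early, 312 to 340.0 in RMA intermediate and 336 to 385 in RMA late, and to 294 to 452, 291 to 473 and 409 to 581 in RMA-KR early, intermediate and late, the last above every control. Igkc was at 1.25, 134 and 26.3 CPM in RMA-KR late, 59.1, 2.22 and 1.69 in RMA-KR early and 0, 10.6 and 4.23 in RMA early, and at most 3.83 in the other groups. The 5 plasma cell markers, mostly Xbp1, summed to 281 to 410.3 CPM in control, 286 to 372 in RMA early, 384 to 462 in RMA intermediate, 349 to 471 in RMA late, 407 to 467 in RMA-KR early, 239 to 464 in RMA-KR intermediate and 301 to 481 in RMA-KR late. The 8 granulocyte markers summed to at most 3.18 CPM outside RMA late 2 (12.4), and the 6 red blood cell markers to at most 3.70. Ly6c2 was the only gene of these lists that was called in any comparison, and the part of other cells in the listed genes' levels was not tested.

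Of the 11 immediate early and stress genes tested, Egr1 rose in RMA-KR late (log2 fold change 1.84, adjusted p = 0.0151) and Fosb fell in RMA late against RMA early (−2.76, adjusted p = 0.0378). Egr1 was lost without control 3 or 4 (adjusted p 0.0712 and 0.0709), RMA-KR late 3 (0.103) or the 4 libraries set apart (0.0656). Fosb was lost without RMA early 1 or 2 (0.0781 and 0.0942) or RMA late 1 or 2 (0.209 and 0.189). The genes outside all lists whose log2 levels ran most like the mean of the 42 over the 24 libraries were AC157548.1 (Pearson r 0.908), Mcm5 (0.902), Dut (0.900), Txn1 (0.895) and Mcm7 (0.892). Mcm5 and Mcm7 are parts of the helicase that unwinds DNA for copying, and Dut helps to supply a nucleotide for DNA synthesis. These r values describe 24 libraries that share 7 groups, and no test was made.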

How the data were processed

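NK cells were measured by RNA-seq of polyadenylated RNA in 24 libraries of 7 groups, taken from the labels. The counts per gene are those the authors deposited, made by trimming reads with cutadapt 1.10, discarding ribosomal RNA reads with Bowtie2 2.2.8, aligning to mm10 with STAR 2.5.3a and counting with HTSeq 0.6.1p1 in union mode on Ensembl 96. The strand setting of the counting was not stated. The authors deposited the median transcript length per gene as well, used to give levels per kilobase. The other 48 per-library columns and the 29 columns of the authors' comparisons were not used.

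Genes with low counts were removed with filterByExpr of edgeR 4.0.16 over the 7 groups, which kept 17097 of 45237 genes. Counts were scaled by TMM, and edgeR's quasi-likelihood model, with limma 3.58.1 in R 4.3.3, gave each group its own mean and used the 24 libraries together. P values were adjusted over all genes tested (Benjamini-Hochberg), and a call required both a fold change over 2 and an adjusted p below 0.05. The procedure was tested on simulated data, and no result of that test is used here. Total counts per library, 5138651 to 14863500, limit precision for genes with few counts, and no fold change is given for a gene close to the limit of detection.

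Alternatives were DESeq2's size factors (DESeq2 1.42.0), no filter, DESeq2 with its fold change prior, a block for the replicate number, leaving out each library in turn and, chosen after seeing the data, leaving out 4 libraries with low immediate early genes. Isg15, Rsad2 and the 8 called genes with the largest fold change at the late stage are given with the value of every library, every called gene with its test, and further genes were chosen after their values were seen. The listed genes and all marker lists were chosen with earlier results of these data known.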

Additional observations from a re-analysis of the deposited data

Results flagged for a closer look

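A library lying far from the rest of its group was looked for in control and RMA-KR intermediate, the groups with 4 or more libraries, for the 10 described genes, 6 pathway genes, the list's median and the immediate early sum, 36 sets of values in all. Control 3 stood out in 2 of them, for Ifi27l2a at 6.004 CPM and for Usp18 at 55.932 CPM. Chance alone picks out about 1 in 20 groups.

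Differences between groups drew attention where edgeR tested them directly and called the gene. Between RMA and RMA-KR at the intermediate stage, the log2 difference was 1.9873 for Usp18, 1.5245 for Bst2, 4.0238 for Ifi27l2a, 1.2782 for Xaf1 and 1.4071 for Trim30a. The tumors were sampled at different days at that stage, so tumor and day cannot be told apart. Between RMA late and RMA early it was 2.0426 for Usp18, 1.9512 for Oas1a, 1.0944 for Zbp1, 5.0214 for Ifi27l2a, 4.7265 for Ifi44, 1.9002 for Xaf1 and 1.2056 for Lgals3bp. Several of these calls were lost without a single library, as the report gives.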

How the results depend on the processing

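Without the filter on low counts, edgeR called 21 listed genes in RMA intermediate, 16 in RMA late, 1 in RMA-KR intermediate and 6 in RMA-KR late, each against control. Without the filter it also called 1, 15 and 2 between RMA and RMA-KR at the early, intermediate and late stages and 6 between RMA-KR late and early. DESeq2 called 19 in RMA intermediate, 4 in RMA-KR late and 3 between RMA-KR late and early. With DESeq2, whose prior shrinks fold changes by construction, the list's median log2 fold change was 0.999 in RMA intermediate, 0.789 in RMA late, 0.0620 in RMA-KR early, 0.791 between RMA and RMA-KR intermediate and 0.565 between RMA late and early. With DESeq2's size factors in edgeR, every count of called genes stayed within 1.5 times the count reported, the listed genes changed sign in 2 (RMA early), 1 (RMA intermediate), 3 (RMA late against early) and 1 (RMA-KR late against early) cases, and the cause was not tested.

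Replicate numbers in the labels do not pair libraries. Over 64 pairs of libraries with the same number, Pearson r ran from −0.118 to 0.202 with a median of −0.00711. With a block for that number, 1 gene was called in RMA-KR late, the median between RMA and RMA-KR intermediate was 1.27 and Isg15 in RMA-KR late changed sign from −0.20 to 0.108; the cause was not tested.

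Without the 4 libraries with low immediate early genes, chosen after seeing the data, 0 genes were called by edgeR in RMA-KR late. The median was 0.0575 in RMA-KR early, −0.157 in RMA-KR intermediate and 1.53 between RMA and RMA-KR intermediate, and Isg15 in RMA-KR late changed sign from −0.20 to 0.127; the cause was not tested.

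Leaving out each library in turn gave counts of 0 to 1 in RMA early, 8 to 9 in RMA intermediate, 7 to 11 in RMA late, 0 to 2 in RMA-KR late, 2 to 5 between RMA and RMA-KR intermediate, 1 to 8 between RMA late and early and 0 to 1 between RMA-KR late and early. Of 70 results for single named genes, 68 kept direction and side of the threshold with DESeq2's size factors, 58 with DESeq2, 62 without the filter, 61 with the block and 61 without the 4 libraries. Limits are set by 3 to 5 libraries per group, by 1 clone of RMA-KR and by low counts for several listed genes.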
